A study of Rattus norvegicus with 9 samples.

Results

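Potassium channel genes were taken as the probe sets whose platform annotation gives exactly 1 gene symbol and whose symbol starts with Kcn. This rule found 126 of the 31042 probe sets on the array that are not controls, and they stand for 75 of the 14217 genes named in this way and for 18 subfamilies. Of these, 68 probe sets of 48 genes were bright enough to be tested, against 18625 probe sets in all. The other 58 probe sets lay below the signal filter, and the 27 genes with no tested probe set are listed by name.

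The arrays profiled the hypothalamus of normal female rats with no treatment at 3 stages of sexual maturation. There were 3 juvenile animals of day 26, which the labels describe as controls, 3 early pubertal animals of day 29 and 3 late pubertal animals of day 31. Per the labels each array carries 1 rat's hypothalamus, so the spread within a stage is a spread between animals plus the error of the assay. Total RNA of the whole piece of tissue was labelled from its polyadenylated end, and the series was designed to look for expression changes across normal female development.

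Potassium channels let potassium leave the cell and so set the resting potential, end the action potential and limit how often a neuron fires. The pore-forming subunits fall into voltage-gated channels, channels opened by calcium or sodium inside the cell, inward rectifiers and leak channels with a paired pore domain, and auxiliary subunits alter how many channels reach the membrane and how they gate. In the hypothalamus these channels shape the firing of neurosecretory neurons, among them those that release gonadotropin-releasing hormone to call up the pituitary gonadotropins.

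Levels are given as log2(signal + 16) after quantile normalization, where signal is the intensity the authors deposited for a probe set. A step of 1 in a level is a doubling of signal + 16, which understates the change of a dim probe set. Per array values are listed for juvenile replicates 1, 2 and 3, then early pubertal replicates 7, 8 and 10, then late pubertal replicates 12, 14 and 20. The median deposited signal ran from 79.8 to 122 over the arrays, and trimmed means differed by up to 1.42 times. Transcript markers of neurons were tested in 8 of 8 cases and those of hypothalamic cell groups in 9 of 10, with Sim1 below the filter and Avp, Oxt, Hcrt and Pmch among those tested. A whole-tissue array cannot tell fewer cells of a type from less RNA per cell. Probe sets differ in how strongly they bind, so a level is compared between stages and never between genes as an amount of transcript.

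Every subfamily except Kcnb had at least 1 tested probe set, which makes 17 of 18. Voltage-gated subunits supplied 27 tested probe sets of 49, from 20 of 31 genes. Auxiliary subunits supplied 14 of 26, from 9 of 13 genes. Inward rectifiers supplied 14 of 26, from 9 of 15 genes. Two-pore leak channels supplied 7 of 16, from 7 of 11 genes, and calcium- and sodium-activated channels supplied 6 of 9, from 3 of 5 genes. All 6 probe sets of Kcnd, the subfamily of fast inactivating A-type channels, and all 3 of Kcnt1, a sodium-activated channel, passed the filter. By contrast 2 of 7 for Kcne, 3 of 8 for Kcnh and 1 of 4 for Kcng did so. Over the family 54% of probe sets were tested.

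The signal filter stood at a level of 6.30, which is 62.8 on the scale of the deposited signal. Just inside it lay Kcnk9 at 6.32, a probe set of Kcnq5 at 6.34 and Kcnj5 at 6.35. Just outside it lay a probe set of Kcnj3 at 6.22, Kcnj9 at 6.27 and a probe set of Kcnc2 at 6.27.

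The 27 genes with no tested probe set were Kcnab3, Kcnb2, Kcne1, Kcne2, Kcng3, Kcnh4, Kcnh5, Kcnh6, Kcnh7, Kcnh8, Kcnj1, Kcnj2, Kcnj9, Kcnj12, Kcnj13, Kcnj15, Kcnk5, Kcnk10, Kcnk12, Kcnk15, Kcnmb1, Kcnn1, Kcnn4, Kcnq1, Kcns1, Kcns2 and Kcnv2. A dim probe set does not show that a transcript is missing. Kcnj13 and Kcne2, which are known from the choroid plexus, were both in this group, with Kcnj13 at a mean of 5.70 over the 9 arrays. Of 5 matched markers of that tissue Kl and Sostdc1 also lay below the filter, while Ttr at 7.78, Prlr at 7.57 and Folr1 at 7.20 passed it.

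Each subfamily is represented here by the gene of its brightest tested probe set, a choice of names that does not order the genes by transcript. For voltage-gated channels these were the axonal channel Kcna2, with a mean level of 10.07, Kcnc1, a channel of fast-firing neurons, at 10.01, and the A-type channel Kcnd2 at 10.03. Kcnq5 stood at 8.29, the ether-a-go-go related channel Kcnh2 at 7.74, and the modifier subunits Kcns3, Kcnv1 and Kcng2 at 7.14, 6.80 and 6.67. For auxiliary subunits they were Kcnip4, a calcium-binding partner of A-type channels, at 10.15, Kcnab2 at 9.58, Kcnmb4 at 8.91 and Kcne4 at 8.23. Kcnj16, an inward rectifier known from astrocytes, stood at 9.87 and the mechanosensitive leak channel Kcnk2 at 9.36. Among channels opened by calcium or sodium, Kcnt1 stood at 7.58, the small-conductance channel Kcnn3 at 6.85 and the large-conductance channel Kcnma1 at 6.83.

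**Figure D1:**
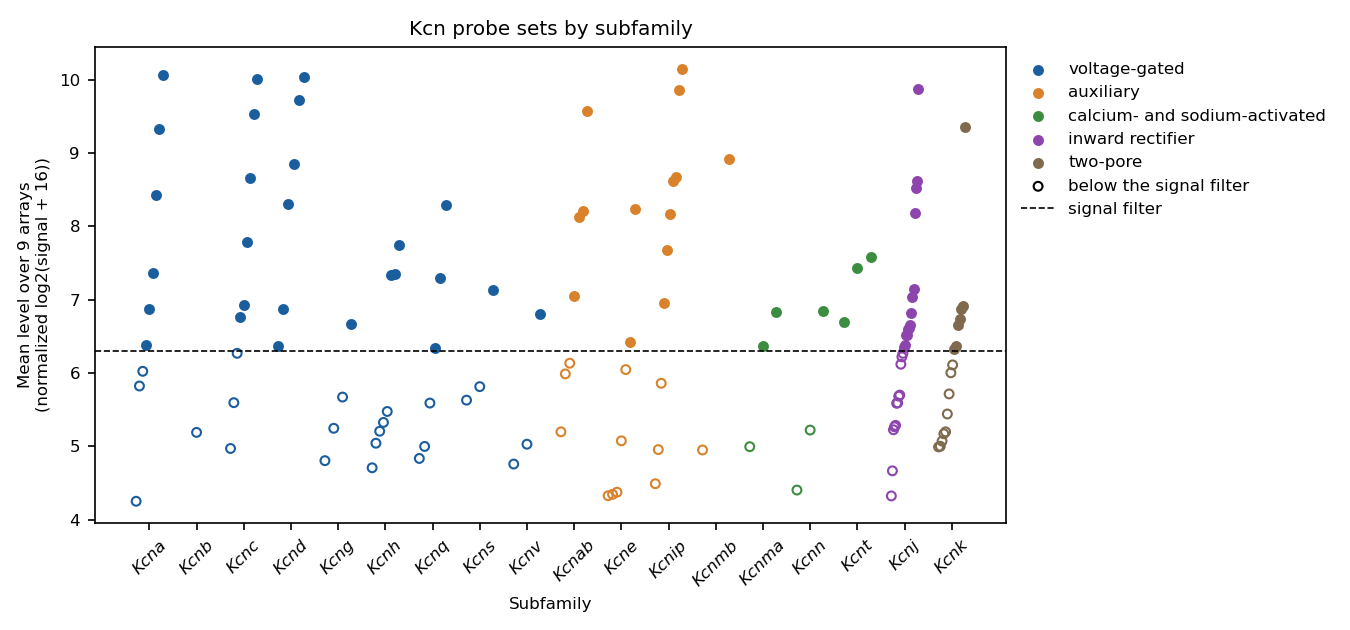
Mean level over the 9 arrays of each of the 126 Kcn probe sets, as normalized log2(signal + 16), by subfamily and coloured by role, with filled points for tested probe sets, open points for those below the filter and a dashed line at the filter of 6.30. Every Kcnd and Kcnt point lies above the line, the single Kcnb point lies below it, and points near 10 include those of Kcnip4, Kcna2, Kcnd2 and Kcnc1, which do not order the genes by transcript.

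No potassium channel gene passed the test at any step of maturation. In early pubertal against juvenile animals, 0 of 68 Kcn probe sets had a limma adjusted p under 0.05, beside 0% of all 18625 probe sets, and the smallest adjusted p was 0.994. At an unadjusted limma p under 0.05 there were 2 Kcn probe sets, 2.94%, beside 4.46% of all. In late pubertal against juvenile animals the counts were 0 of 68, beside 0%, and 2 at an unadjusted p under 0.05, 2.94% beside 4.14%, with a smallest adjusted p of 0.9998. In late against early pubertal animals they were 0 of 68, beside 0%, and 5, 7.35% beside 5.21%, with a smallest adjusted p of 0.914. The moderated F test over the 3 stages called 0 of 68, beside 0%, with 3 at an unadjusted p under 0.05, 4.41% beside 4.22%. These shares of Kcn probe sets lie near those of all probe sets in each comparison.

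Stages were also compared by whether all 3 arrays of a stage lay above all 3 of the other. Early pubertal arrays lay wholly above juvenile arrays for 2 Kcn probe sets, of Kcnc4 and Kcnma1, 2.94% beside 3.86% of all. They lay wholly below for 3, of Kcnt1, Kcnip4 and Kcnj3, 4.41% beside 4.43%. Late pubertal arrays lay wholly above juvenile arrays for 0, beside 5.9%, and wholly below for 5, of Kcnd3, Kcnt1, Kcnip4, Kcnj3 and Kcnj16, 7.35% beside 5.52%. Late pubertal arrays lay wholly above early pubertal arrays for 5, of Kcnt1, Kcnc2, Kcna1, Kcna4 and Kcnv1, 7.35% beside 5.97%. They lay wholly below for 4, of Kcnd3, Kcnk1, Kcnh2 and another probe set of Kcnt1, 5.88% beside 5.37%. The 3 comparisons share arrays in pairs, so a probe set with a deviating stage can enter more than 1 of these counts. Kcnt1 and Kcnj3 lay below juvenile arrays in both pubertal stages, but through different probe sets. These were 1395102_at and 1369741_at in early pubertal arrays, and 1379147_at and 1388292_at in late pubertal arrays.

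The median difference of the family was close to 0 in each comparison after normalization. Medians over the family per array varied within stages with a pooled SD of 0.053. This is a spread of single arrays, while the medians of differences compare means of 3 arrays, so it is not their error. The median difference of the 68 probe sets was -0.05 in early pubertal against juvenile animals, with 23 higher and 45 lower, and 33.8% higher beside 49.6% over all probe sets. It was -0.05 in late pubertal against juvenile animals, with 27 higher and 41 lower. It was -0.04 in late against early pubertal animals, with 28 higher and 40 lower, but 0.19 at the deposited level, where the split was 60 higher and 8 lower and the median of all probe sets was itself 0.22. At the deposited level the early pubertal split against juvenile was 5 higher and 63 lower, beside a median of all probe sets of -0.24. Measured from the median of all probe sets, 44, 41 and 39 of the 68 lay on the lower side at that level. Summed thalamic markers were 1492 in each juvenile array, 1232 to 1371 in early pubertal and 1321 to 1449 in late pubertal arrays. Within that list the arrays of Rora and Lef1 overlapped between all stages. Summed neuron markers were 17794 to 20404, 17809 to 20384 and 17638 to 18429 in the same order of stages, and these ranges overlapped. None of the markers in either list passed the test, and their part in these values was not tested.

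The fit gave bounds on each difference. The 95% interval of the difference lay within a 2-fold change either way for 66 of 68 Kcn probe sets in each comparison, 97.1% beside 97.4%, 97.3% and 97% of all. It lay within 1.5-fold for 47 in early pubertal against juvenile, 41 in late pubertal against juvenile and 40 in late against early pubertal animals. These are 69.1%, 60.3% and 58.8%, beside 76.7%, 76.4% and 74.9% of all probe sets. Of the 30 differences named by their p, 16 moved by more than 1.5 times when some array was left out, and 0 turned direction. They were picked by their p in these same arrays, which favours keeping the direction. The SE of a difference had a median of 0.18 and ran from 0.07 to 0.32. It was wider for dim probe sets, with a median of 0.20 below a mean level of 7.31 and 0.14 above it.

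**Figure D2:**
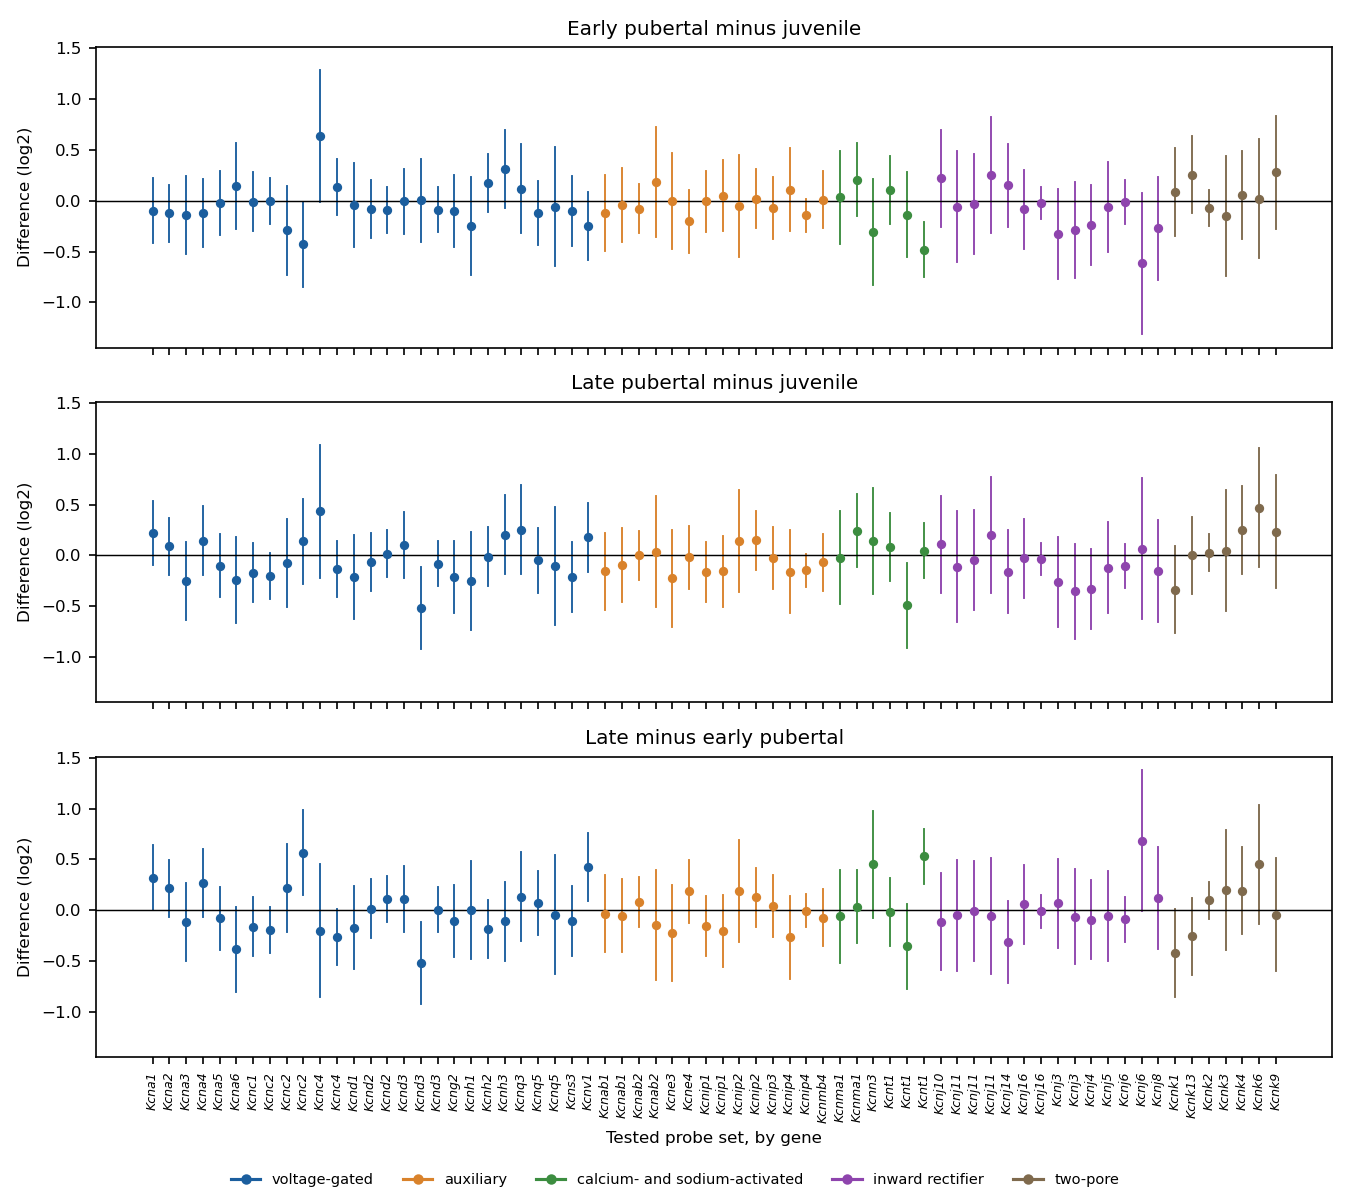
Difference between stages on the log2 scale for each of the 68 tested Kcn probe sets, as points with 95% intervals from the limma fit, 1 panel per comparison and coloured by role. Most intervals cross the line at 0, and none of the probe sets had an adjusted p under 0.05.

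The sodium-activated channel Kcnt1, which carries a slow outward current after bursts of spikes, had the smallest unadjusted p of the family. Its probe set 1395102_at read 7.47, 7.62 and 7.62 in juvenile, 7.06, 7.08 and 7.13 in early pubertal and 7.56, 7.58 and 7.72 in late pubertal arrays. All 3 early pubertal arrays lay below the 6 others. The difference was -0.48 ± 0.12 (SE) from juvenile to early pubertal animals, an interval of -0.75 to -0.21, with an unadjusted limma p of 0.00216 and an adjusted p of 0.994. From early to late pubertal animals it was 0.53 ± 0.12, an interval of 0.26 to 0.80, with an unadjusted p of 0.00107 and an adjusted p of 0.914. The F test gave an unadjusted p of 0.00181 and an adjusted p of 0.974.

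The other probe sets of Kcnt1 read differently. Probe set 1379147_at read 6.96, 6.65 and 7.08 in juvenile, 7.07, 6.49 and 6.72 in early pubertal and 6.43, 6.46 and 6.33 in late pubertal arrays. Here the late pubertal arrays were the low ones, at -0.49 ± 0.19 (SE) against juvenile arrays with an unadjusted limma p of 0.0243 and an adjusted p of 0.9998, and at -0.36 ± 0.19 against early pubertal arrays. Probe set 1369222_at, the brightest of the 3, differed by 0.10, 0.08 and -0.02 in the 3 comparisons, each with an SE of 0.15. The stage that stood apart thus differed between the first of these probe sets and 1379147_at, and no stage stood apart in the brightest.

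The A-type channel Kcnd3 repeated this picture. Its probe set 1369145_a_at read 6.46, 6.58 and 6.56 in juvenile, 6.35, 6.55 and 6.72 in early pubertal and 5.84, 5.98 and 6.23 in late pubertal arrays. The late pubertal arrays lay below the other 6, by -0.52 ± 0.19 (SE) against juvenile arrays with an unadjusted limma p of 0.0166 and an adjusted p of 0.9998. Against early pubertal arrays the difference was -0.52 ± 0.19, with an unadjusted limma p of 0.0163 and an adjusted p of 0.914. This probe set was the dimmest of 3, with a mean level of 6.36 near the filter. The other 2, at mean levels of 8.30 and 8.86, differed by 0.10 and -0.08 from juvenile to late pubertal animals and by 0.11 and 0.01 from early to late pubertal animals.

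The fast delayed rectifier Kcnc2 had 3 tested probe sets. Probe set 1370559_at read 7.81, 8.20 and 7.62 in juvenile, 7.26, 7.23 and 7.86 in early pubertal and 7.95, 8.14 and 7.96 in late pubertal arrays. Early pubertal replicates 7 and 8 were the low arrays, and replicate 10 lay within the juvenile range. The difference was -0.43 ± 0.19 (SE) from juvenile to early pubertal animals and 0.57 ± 0.19 from early to late pubertal animals, with unadjusted limma p of 0.0441 and 0.0118 and adjusted p of 0.994 and 0.914. The brightest probe set, 1370439_a_at, went the other way from early to late pubertal animals at -0.19 ± 0.10. It read 9.74, 9.48 and 9.60, then 9.55, 9.79 and 9.46, then 9.48, 9.37 and 9.37. Probe set 1370557_a_at differed by -0.29 ± 0.20, -0.07 ± 0.20 and 0.22 ± 0.20 in the 3 comparisons.

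**Figure D3:**
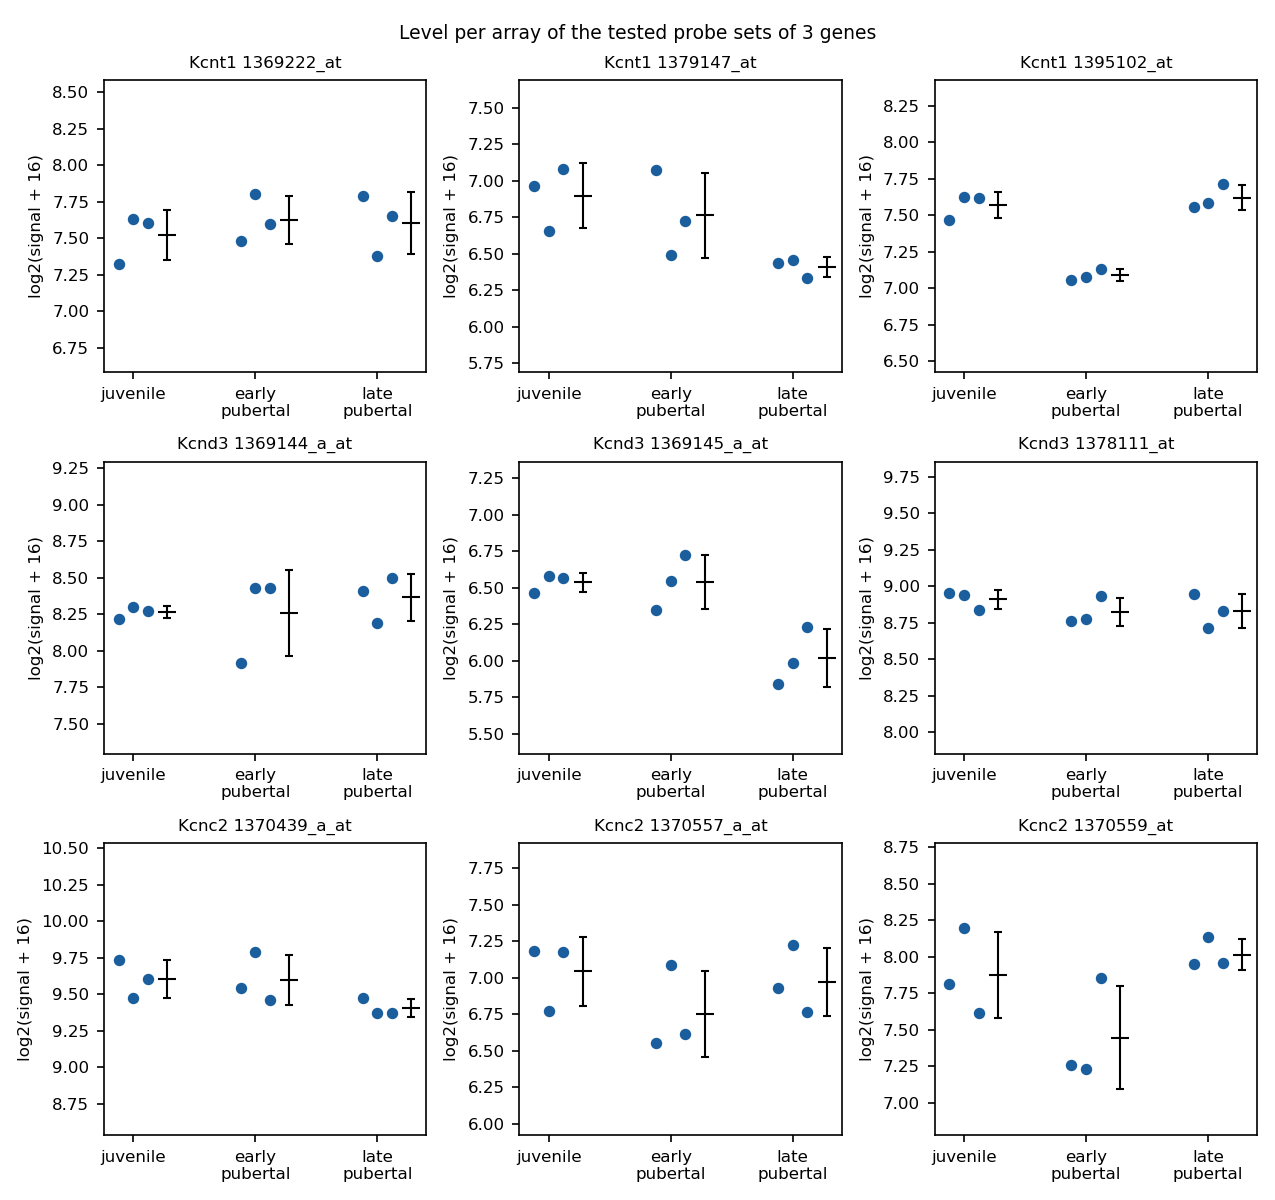
Level per array, as normalized log2(signal + 16), of the 9 tested probe sets of Kcnt1, Kcnd3 and Kcnc2, with a point for each of 3 arrays per stage and a bar for the stage mean with its SD, all panels spanning the same range of 2 log2 units. The dip in early pubertal arrays is seen for Kcnt1 1395102_at, the low late pubertal arrays for Kcnt1 1379147_at and Kcnd3 1369145_a_at, and no such gap in the brighter probe sets of Kcnt1 and Kcnd3.

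The promoters of Kcnt1, Kcnd3 and Kcnc2, the genes with an F test p under 0.05 before adjustment, are shown as examples with and without the sequence features of the family. The arrays measured no promoter, and a motif match is a description of letters only. Of 75 genes, 52 matched the RefSeq promoter table of the GRCr8 rat assembly, with 58 windows that reach from 250 bases before to 50 bases after a gene start. These windows had a median GC content of 62% and a median of 15 CpG, beside 51.67% and 7 over all 33469 windows of the table. The GC box GGGCGG, searched on both strands, occurred in 56.9% of Kcn windows and 33.1% of all windows. The TATA box TATAAA occurred in 3.45% and 14.2%, and the cAMP response element TGACGTCA in 0% and 1.83%, so that 0 of 58 windows held these letters. Below are the 250 bases before the start of each gene on the plus strand, Kcnt1 at chr3:29081089-29081338 with a GC content of 64.8% Kcnd3 at chr2:195626066-195626315 with 79.6% and Kcnc2 at chr7:49587364-49587613 with 56%, and capitals mark the GC box as it reads on this strand, here its reverse complement.
Kcnt1: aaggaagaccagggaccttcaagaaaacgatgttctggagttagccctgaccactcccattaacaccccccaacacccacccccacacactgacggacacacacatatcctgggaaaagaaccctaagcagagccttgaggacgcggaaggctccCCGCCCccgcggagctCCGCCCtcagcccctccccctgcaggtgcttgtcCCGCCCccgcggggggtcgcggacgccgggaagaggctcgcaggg
Kcnd3: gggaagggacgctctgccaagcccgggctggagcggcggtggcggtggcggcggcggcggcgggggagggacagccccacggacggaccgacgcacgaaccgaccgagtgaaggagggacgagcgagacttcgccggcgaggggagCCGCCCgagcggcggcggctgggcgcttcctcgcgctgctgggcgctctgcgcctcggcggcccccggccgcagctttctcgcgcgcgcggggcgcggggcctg
Kcnc2: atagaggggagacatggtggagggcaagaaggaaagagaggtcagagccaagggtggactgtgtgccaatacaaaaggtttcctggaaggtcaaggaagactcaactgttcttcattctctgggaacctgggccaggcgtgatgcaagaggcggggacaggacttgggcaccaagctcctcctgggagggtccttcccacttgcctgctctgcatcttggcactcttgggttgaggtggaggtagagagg
The Kcnt1 stretch holds 3 GC boxes, the Kcnd3 stretch 1 and the Kcnc2 stretch 0. Kcnt1 and Kcnc2 each have a further start in the table.

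Among the remaining voltage-gated subunits, those of the Kcna subfamily form axonal and somatic channels that limit repetitive firing. Kcna1 read 8.67, 8.14 and 8.34 in juvenile, 8.10, 8.47 and 8.28 in early pubertal and 8.49, 8.69 and 8.63 in late pubertal arrays. Its late pubertal arrays lay above the early pubertal ones by 0.32 ± 0.15 (SE), and above the juvenile mean by 0.22 ± 0.15 with overlapping arrays. The latter was 0.10 without juvenile replicate 2 and 0.36 without juvenile replicate 1. Kcna4, the A-type member of the subfamily, read 6.88, 6.70 and 7.01 in juvenile, 6.63, 6.83 and 6.76 in early and 6.94, 6.94 and 7.14 in late pubertal arrays, a late against early difference of 0.27 ± 0.15. Kcna6 went in the other direction at -0.38 ± 0.19, with 9.82, 9.46 and 9.21 in early and 8.89, 9.23 and 9.22 in late pubertal arrays that overlapped. The bright Kcna2 differed by -0.13 ± 0.13, 0.09 ± 0.13 and 0.22 ± 0.13 in the 3 comparisons. Kcna3 and Kcna5 differed by no more than 0.25 either way.

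Kcnv1, a silent subunit that alters other voltage-gated channels and forms no channel alone, read 6.96, 6.82 and 6.70 in juvenile, 6.72, 6.56 and 6.46 in early pubertal and from 6.95 to 7.06 in late pubertal arrays. The late pubertal arrays lay above the early ones by 0.43 ± 0.15 (SE), an interval of 0.09 to 0.76, with an unadjusted limma p of 0.0171 and an adjusted p of 0.914. The other silent subunits with a tested probe set, Kcns3 and Kcng2, differed by -0.21 ± 0.16 each from juvenile to late pubertal animals and by -0.11 ± 0.16 each from early to late pubertal animals. Their difference from Kcnv1 was not tested, and Kcng3, Kcns1, Kcns2 and Kcnv2 lay below the filter.

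Kcnc4, a fast inactivating relative of Kcnc2, gave the largest early pubertal difference on the higher side. Probe set 1391369_at read 6.41, 6.50 and 6.32 in juvenile, 7.18, 6.77 and 7.19 in early pubertal and 7.70, 6.37 and 6.46 in late pubertal arrays. Early pubertal arrays lay wholly above juvenile ones by 0.64 ± 0.30 (SE), an interval of -0.02 to 1.29, with an unadjusted limma p of 0.0554 and an adjusted p of 0.994. The late pubertal difference of 0.43 ± 0.30 rested on late pubertal replicate 12 and was 0.0057 without it. The brighter probe set 1393163_at differed by 0.13 ± 0.13, -0.13 ± 0.13 and -0.26 ± 0.13 in the 3 comparisons. Kcnc1 differed by -0.01 ± 0.13, -0.17 ± 0.13 and -0.16 ± 0.13.

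Of the Kcnh subfamily, Kcnh3 read 6.97, 7.19 and 7.36 in juvenile, 7.82, 7.44 and 7.21 in early pubertal and 7.25, 7.33 and 7.54 in late pubertal arrays. Its early pubertal difference of 0.31 ± 0.18 (SE) was 0.15 without early pubertal replicate 7. Kcnh2 read 7.80, 7.85 and 7.94 in early pubertal arrays, all above the late pubertal 7.64, 7.77 and 7.63, for a late against early difference of -0.18 ± 0.13. Against juvenile arrays the early pubertal difference of Kcnh2 was 0.17 ± 0.13. At the deposited level it was -0.08, where the median of all probe sets was itself -0.24. Kcnh1 differed by -0.25 ± 0.22 in both early and late pubertal against juvenile animals.

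Channels of the M current, a slow current that hormones and transmitters shut off, were represented by Kcnq3 and Kcnq5. Kcnq3 differed by 0.12 ± 0.20 (SE), 0.25 ± 0.20 and 0.13 ± 0.20 in the 3 comparisons. The brighter probe set of Kcnq5 differed by -0.12 ± 0.14, -0.05 ± 0.14 and 0.07 ± 0.14, and its dim one by -0.06 ± 0.27, -0.10 ± 0.27 and -0.05 ± 0.27. All of these intervals included 0. Kcnd2, the other main A-type channel, differed by at most 0.11 either way in both of its probe sets, with SEs of 0.13 and 0.10. As a group the 27 voltage-gated probe sets had medians of -0.08, -0.07 and -0.05, with 7, 10 and 12 on the higher side. At the deposited level the late against early median was 0.18, with 24 higher and 3 lower. The median of all probe sets was 0.22 there, and the group lay at -0.05 relative to it. Without late pubertal replicate 14 the normalized late against early median turned to 0.063.

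Auxiliary subunits had medians of -0.02, -0.08 and -0.04 over 14 tested probe sets, with 5, 4 and 5 on the higher side. The early pubertal median turned to 0.015 without juvenile replicate 3. At the deposited level the late against early median was 0.18, with 13 of 14 higher. The median of all probe sets was 0.22 there, and the group lay at -0.04 relative to it. Kcnip4 had the most precise lower readings among them. Its probe set 1383220_at read 10.20, 10.31 and 10.23 in juvenile, 10.14, 10.09 and 10.08 in early pubertal and 9.99, 10.15 and 10.16 in late pubertal arrays. Both pubertal stages lay wholly below the juvenile arrays, by -0.14 ± 0.07 (SE) and -0.15 ± 0.07, with intervals of -0.30 to 0.02 and -0.31 to 0.02. The dimmer probe set of Kcnip4 differed by 0.11 ± 0.19, -0.16 ± 0.19 and -0.27 ± 0.19. The other interacting proteins, Kcnip1, Kcnip2 and Kcnip3, differed by at most 0.21 either way over 5 probe sets.

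The cytoplasmic beta subunits Kcnab1 and Kcnab2 differed by at most 0.19 either way over 4 probe sets. The bright one of Kcnab2 read 9.61, 9.60 and 9.60 in juvenile, 9.56, 9.65 and 9.36 in early pubertal and 9.63, 9.79 and 9.39 in late pubertal arrays, which overlapped throughout. Kcne4, a small membrane subunit, differed by -0.20 ± 0.14 (SE), -0.02 ± 0.14 and 0.19 ± 0.14, and Kcne3 by -0.00 ± 0.22, -0.22 ± 0.22 and -0.22 ± 0.22.

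Calcium- and sodium-activated channels other than Kcnt1 were Kcnma1 and Kcnn3, with Kcnn1 and Kcnn4 below the filter. Kcnma1, the large-conductance channel that shortens spikes, read 6.81, 6.65 and 6.57 in juvenile, 6.82, 6.95 and 6.88 in early pubertal and 6.86, 6.73 and 7.17 in late pubertal arrays in probe set 1372929_at. Early pubertal arrays lay above juvenile ones by 0.21 ± 0.16 (SE), with 6.82 against 6.81 as the closest pair. At the deposited level the difference was -0.01, where the median of all probe sets was itself -0.24. The other tested probe set of Kcnma1 differed by 0.03 ± 0.21, -0.02 ± 0.21 and -0.06 ± 0.21. The brain beta subunit Kcnmb4 differed by 0.01 ± 0.13, -0.06 ± 0.13 and -0.07 ± 0.13, and Kcnmb1 lay below the filter. Kcnn3, whose channel makes the afterhyperpolarization, read 6.74, 7.20 and 6.77, then 6.24, 6.87 and 6.67, then 7.49, 6.66 and 6.99. Its late against early pubertal difference was 0.45 ± 0.24 and the arrays overlapped. The 6 probe sets of this group had medians of -0.05, 0.07 and 0.01, with 3, 4 and 3 on the higher side. Each of these turned direction when 1 array was left out, to 0.045 without juvenile replicate 3, to -0.029 without late pubertal replicate 12 and to -0.046 without late pubertal replicate 20.

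Inward rectifiers lay mostly on the lower side against juvenile animals. Of 14 tested probe sets 11 were lower at the early and 11 at the late pubertal stage, with medians of -0.06 and -0.11, and both counts share the juvenile arrays. From early to late pubertal animals 10 were lower with a median of -0.05 after normalization. At the deposited level the median was 0.18, beside 0.22 for all probe sets, and lay at -0.05 relative to that. None of these differences passed the test.

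The G-protein gated members Kcnj3, Kcnj5 and Kcnj6 form channels through which opioid, GABA and other inhibitory receptors hyperpolarize neurons. Kcnj3 probe set 1369741_at read 7.30, 7.19 and 7.21 in juvenile, 7.09, 6.58 and 7.04 in early pubertal and 6.90, 6.65 and 7.37 in late pubertal arrays. Early pubertal arrays lay wholly below the juvenile ones by -0.33 ± 0.20 (SE), and the late pubertal difference was -0.26 ± 0.20. The early pubertal difference was -0.17 without early pubertal replicate 8. Its probe set 1388292_at read 6.44, 6.71 and 7.02, then 6.50, 6.74 and 6.07, then 6.30, 6.38 and 6.43, with differences of -0.29 ± 0.22 and -0.35 ± 0.22 from juvenile animals. Both probe sets of Kcnj3 thus lay on the lower side in both pubertal stages, with intervals that included 0.

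Kcnj6 depended on the probe set and on the array. Probe set 1370598_a_at read 6.56, 6.25 and 6.87 in juvenile, 5.18, 6.54 and 6.10 in early pubertal and 6.32, 6.64 and 6.92 in late pubertal arrays. The early pubertal difference of -0.62 ± 0.32 (SE) was the largest lower value of that comparison, and early pubertal replicate 7 was the low array. It was -0.24 without replicate 7 and -0.92 without replicate 8. From early to late pubertal animals the difference was 0.68 ± 0.32. The brighter probe set 1369035_a_at read between 8.42 and 8.67 in all arrays and differed by -0.01 ± 0.10, -0.10 ± 0.10 and -0.09 ± 0.10. Kcnj5 differed by -0.06 ± 0.20, -0.12 ± 0.20 and -0.06 ± 0.20, and Kcnj9 lay below the filter.

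The ATP-sensitive channel, which couples glucose metabolism to excitability, is built of Kcnj11 in neurons and Kcnj8 in vessel walls. The 3 tested probe sets of Kcnj11 differed by -0.06 ± 0.25 (SE), -0.03 ± 0.23 and 0.26 ± 0.26 from juvenile to early pubertal animals, with overlapping arrays in each. Kcnj8 read 7.10, 6.61 and 6.54 in juvenile, 6.61, 6.26 and 6.57 in early pubertal and 6.81, 6.82 and 6.15 in late pubertal arrays, and differed by -0.27 ± 0.23, -0.15 ± 0.23 and 0.12 ± 0.23. Summed markers of mural cells of the vessel wall were 1351 to 2071 in juvenile, 1529 to 2621 in early pubertal and 1966 to 2165 in late pubertal arrays, with Pdgfrb and Cspg4 below the filter among 6. Their part in the Kcnj8 values was not tested.

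The glial inward rectifiers Kcnj10 and Kcnj16 clear potassium around active neurons. Kcnj16 probe set 1373991_at was the steadiest of the family, with 9.88, 9.89 and 9.91 in juvenile, 9.83, 9.95 and 9.82 in early pubertal and 9.86, 9.87 and 9.85 in late pubertal arrays. Its late pubertal arrays lay wholly below the juvenile ones by only -0.04 ± 0.07 (SE), an interval of -0.20 to 0.12. The other probe set of Kcnj16 differed by -0.08 ± 0.18, -0.03 ± 0.18 and 0.06 ± 0.18. Kcnj10 differed by 0.22 ± 0.22, 0.11 ± 0.22 and -0.11 ± 0.22, and early pubertal replicate 8 was its highest array at 7.79. Summed astrocyte markers ran from 29108 to 29768 in juvenile, 29474 to 31243 in early pubertal and 29131 to 31960 in late pubertal arrays, and these ranges overlapped. The classical inward rectifiers Kcnj4 and Kcnj14 differed by -0.33 ± 0.18 and -0.16 ± 0.19 from juvenile to late pubertal animals.

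Two-pore leak channels lay mostly on the higher side, with 5 of 7 probe sets higher in early pubertal and 6 of 7 in late pubertal against juvenile animals and medians of 0.06 and 0.05. At the deposited level the early pubertal median was -0.15, and 0.09 above the median of all probe sets. After normalization the early pubertal median was -0.021 without juvenile replicate 3 and 0.18 without juvenile replicate 1. Kcnk2, a channel opened by stretch and lipids, differed by -0.07 ± 0.08 (SE), 0.03 ± 0.08 and 0.10 ± 0.08, with 9.25 as its lowest and 9.46 as its highest array. The acid-sensitive channels Kcnk3 and Kcnk9 differed by -0.15 ± 0.27 and 0.28 ± 0.25 from juvenile to early pubertal animals. Kcnk4, another mechanosensitive member, differed by 0.25 ± 0.20 from juvenile to late pubertal animals with overlapping arrays. This was 0.10 without late pubertal replicate 12 and 0.42 without late pubertal replicate 14.

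Kcnk1 read 7.03, 6.35 and 6.82 in juvenile, 6.86, 6.83 and 6.77 in early pubertal and 6.58, 6.39 and 6.22 in late pubertal arrays. Its late pubertal arrays lay wholly below the early ones by -0.42 ± 0.20 (SE), an interval of -0.85 to 0.01. Its relative Kcnk6 read 6.53, 6.29 and 5.80, then 6.42, 6.27 and 5.99, then 7.20, 6.29 and 6.54, with a late pubertal difference of 0.47 ± 0.27 (SE) from juvenile arrays. Late pubertal replicate 12 was its highest array, and without that array the probe set fell below the filter. The difference was 0.27 without juvenile replicate 3.

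Kcnk13, which is known as a resting channel of microglia, read 6.74, 6.68 and 7.07 in juvenile, 7.26, 6.95 and 7.05 in early pubertal and 6.66, 7.06 and 6.78 in late pubertal arrays. It differed by 0.26 ± 0.17 (SE) from juvenile to early pubertal and by -0.26 ± 0.17 from early to late pubertal animals, with overlapping arrays. Its mean was 6.83 in both juvenile and late pubertal arrays. Summed microglial markers were 1881 to 2146 in juvenile, 2076 to 2317 in early pubertal and 1774 to 1830 in late pubertal arrays, with Itgam below the filter and the other 6 of 7 tested. The late pubertal sums lay below those of both other stages. The late pubertal arrays of each tested marker taken singly overlapped with its juvenile arrays. Only those of Csf1r and C1qb lay wholly below the early pubertal arrays. None of these markers passed the test, and their part in the Kcnk13 values was not tested.

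Probe sets of the same gene differed in direction about as often as over all genes. There were 16 genes with several tested probe sets, 36 in all. They lay on both sides of 0 for 7 genes in early pubertal against juvenile, 8 in late pubertal against juvenile and 9 in late against early pubertal animals. These are 43.8%, 50% and 56.2%, beside 50.7%, 48.3% and 52.6% of the 2775 genes with several tested probe sets. Many of these differences lie close to 0. Kcnt1, Kcnc2, Kcnd3 and Kcnj6 each had probe sets on both sides in late against early pubertal animals, where a probe set of each was among those named by p. Kcnc4 also had a probe set named there, and both of its tested probe sets lay on the lower side. Different probe sets can read different transcript ends or splice forms of a gene, and which of these each one reads was not analysed here. Beta-actin control probe sets gave a ratio of signal near the polyadenylated end to that near the other end on each array. It ran from 2.40 to 3.16 in juvenile, 2.14 to 2.86 in early pubertal and 2.27 to 3.24 in late pubertal arrays. These ranges overlapped, and the part of this ratio in the differing probe sets was not tested.

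**Figure D4:**
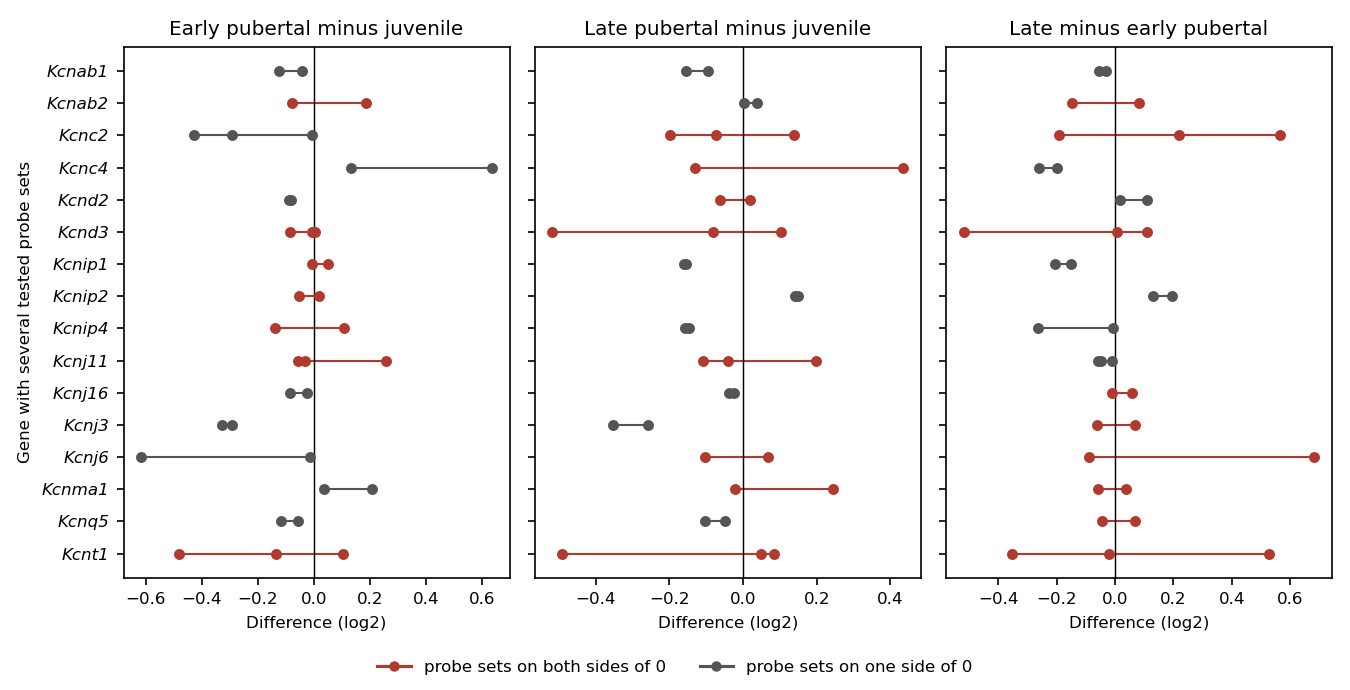
Difference between stages on the log2 scale for the 36 tested probe sets of the 16 genes with several, 1 row per gene and 1 panel per comparison, with a line joining the probe sets of a gene and red marking genes whose probe sets lie on both sides of 0. Red rows number 7, 8 and 9 of 16 in the 3 panels.

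Genes outside the family whose products form, anchor or modify potassium and pacemaker channels were described from a list of 30. Of these 26 had a probe set and 22 were tested, with Hcn4, Dlg2, Lrrc38 and Akap5 below the filter. None passed the test in either direction in any comparison. Their medians were -0.02, -0.03 and -0.04, with 8, 9 and 9 of 22 on the higher side. The first was -0.06 with median centring and 0.0026 without juvenile replicate 3. The last was 0.19 at the deposited level, where the median of all probe sets was itself 0.22. Ank3, the scaffold that holds channels at the start of the axon, differed by -0.36 ± 0.14 (SE) and -0.44 ± 0.14 from juvenile to early and late pubertal animals. Cntnap1, which organizes the node of Ranvier, differed by -0.62 ± 0.21 from juvenile to late pubertal animals. Abcc9, a regulatory subunit of ATP-sensitive channels, differed by -0.34 ± 0.14 and the ubiquitin ligase gene Nedd4l by 0.33 ± 0.15 from juvenile to early pubertal animals. Abcc8, the other such subunit in the list, differed by 0.013, 0.016 and 0.003 in the 3 comparisons, each with an SE of 0.17. From early to late pubertal animals Snx27, which sorts inward rectifiers in endosomes, differed by 0.26 ± 0.09, the pacemaker channel Hcn2 by 0.31 ± 0.14 and the membrane adhesion protein gene Amigo1 by -0.27 ± 0.12. From juvenile to late pubertal animals Snx27 differed by 0.16 ± 0.09.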

How the data were processed

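Titles and source names gave each array's stage, age and replicate number, and no batch. The values the authors deposited are MAS5 signal intensities, linear and 1 per probe set and array, per the submitters' processing notes. Version, target level and detection calls: not given in the sources used. The 57 control probe sets were left out, apart from the beta-actin ratio. Values were taken as log2(signal + 16) and quantile-normalized, and probe sets with a mean over 9 arrays above the 40th percentile were tested. Differences were fitted on all 18625 of them with limma 3.58.1 in R 4.3.3 (1 mean per stage, trended prior with 5.80 degrees of freedom, 6 residual ones, two-sided), with Benjamini-Hochberg adjustment over all tested probe sets within each comparison and a threshold of 0.05. The fit was tested on simulated data. Kcn rows were read from it, and 126 of 126 matched a gene record with 0 symbols changed. The number of arrays limits the precision. Named were up to 5 probe sets per direction and comparison by unadjusted p, those with an F test p under 0.05, the brightest gene of each subfamily, genes with several tested probe sets, members of the ATP-sensitive, glial, G-protein gated, large-conductance and M-current groups, and the 3 partner genes with the smallest p per comparison. Alternatives were constants of 1 and 64, the deposited level, median centring, no filter or the 60th percentile, 1 probe set per gene, a threshold of 0.1, array weights, other priors, a fit on the 6 compared arrays alone, and leaving out each array. The members, lists and tests were chosen with earlier results of these data known.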

Additional observations from a re-analysis of the deposited data

How the results depend on the processing

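None of the Kcn probe sets named by their p passed an adjusted p of 0.05 under any of the 12 alternatives or the 9 fits that left out an array; the lowest adjusted p was 0.097, at the deposited level. Of 597 values of these 30 results, 595 kept their direction and call. The results were picked by their p in the same arrays and none was called, which favours keeping both. Over all tested probe sets, an adjusted p under 0.05 did occur in some of these settings. The deposited level gave 10 in early and 1 in late pubertal against juvenile animals, and 21 in late against early pubertal animals. In late pubertal against juvenile animals, array weights gave 1 and the fit without juvenile replicate 2 gave 1. Reversed in sign, both at the deposited level in early pubertal against juvenile animals, were Kcnh2 at -0.0752 and Kcnma1 at -0.00513. The median of all probe sets was itself -0.24 there, and both values lay above it. The 60th percentile filter kept 10 of the 30, and 1 probe set per gene kept 18. Dim signal left 58 of 126 probe sets untested. No paired analysis was possible because the stages share no replicate numbers.

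At the deposited level, early pubertal minus juvenile medians became -0.27 for all Kcn probe sets, -0.31 for voltage-gated, -0.27 for auxiliary, -0.25 for calcium- and sodium-activated, -0.28 for inward rectifiers, -0.15 for two-pore channels and -0.27 for partners. Late minus early pubertal medians became 0.19, 0.18, 0.18, 0.24, 0.18, 0.33 and 0.19 in the same order. The median of all probe sets there was -0.24 and 0.22. Median centring gave partners -0.0603 in early pubertal minus juvenile. Probe sets with separated stages, 5, 5 and 9 in the 3 comparisons, became 9, 9 and 15 without a filter, 1, 2 and 3 at the 60th percentile and 3, 2 and 5 with 1 probe set per gene, where fewer or more were counted. At the deposited level they became 18 in early pubertal and 3 in late pubertal against juvenile animals. Separation was not counted over all probe sets under these alternatives. The counts thus have no background share and are not read as a result about the family.

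Leaving out an array made separation easier by construction, and the counts ran from 5 to 15, 5 to 16 and 9 to 20. These counts too have no share over all probe sets beside them. Early pubertal minus juvenile medians ran from -0.0799 to 0.0149 for auxiliary, -0.154 to 0.0447 for calcium- and sodium-activated, -0.0209 to 0.18 for two-pore and -0.0582 to 0.0026 for partners. Late pubertal minus juvenile medians ran from -0.0293 to 0.13 for calcium- and sodium-activated and 0.0278 to 0.12 for two-pore channels. Late minus early pubertal medians ran from -0.12 to 0.0634 for voltage-gated, -0.0459 to 0.11 for calcium- and sodium-activated and 0.011 to 0.14 for two-pore channels. The cause of these shifts was not tested.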
